A study of Mus musculus with 2 samples.

Results

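The genes described here mark blood and lymphatic endothelium: Pecam1, Cdh5, Esam, Kdr, Tek, Tie1, Emcn, Plvap, Prox1 and Lyve1. They were chosen by symbol, and all 10 were matched by Ensembl gene identifier among the 43346 genes in the tables of both libraries. The tissue was whole thymus of newborn mice of strain B6NCrl at postnatal day 0, with no treatment named and the sex not collected. Each of the 2 libraries was made from the total RNA of both lobes of 1 pup (10 ng of RNA per library). Pup 2 (replicate 1) and pup 3 (replicate 2) were littermates from 1 pregnant female and carried the same donor entry in the labels. They form 1 group, so no comparison between conditions exists, and the question is how strongly these genes were expressed, in which transcript forms, and how far both pups differed. Vessels were not isolated, so each value is a level in the whole tissue, and fewer endothelial cells and less RNA per endothelial cell cannot be told apart in it.

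Endothelial cells line blood and lymphatic vessels. Their adhesion molecules hold the vessel wall together, and their receptors for VEGF and for angiopoietins govern how vessels grow and how stable they are. Lymphatic endothelium is set apart by the transcription factor PROX1, the VEGF receptor FLT4 and the hyaluronan receptor LYVE1. In the thymus, blood vessels are the route by which progenitors enter and mature T cells leave.

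The depth was 3.90e+07 expected counts in replicate 1 and 4.16e+07 in replicate 2. Levels are TPM, the authors' length-scaled relative abundance, and a gene counts as detected at 1 TPM or more in both libraries. All 6 thymocyte markers were detected, with a summed level of 3481 TPM in replicate 1 and 3535 TPM in replicate 2, as the tissue label states. The endothelial genes summed to 119 TPM in replicate 1 and 113 TPM in replicate 2.

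Alternative coding exons distinguished the transcripts of 3 of these genes. The exon sequences are shown because the share of transcripts that lacked them could be estimated. These shares come from the deposited transcript estimates, and no reads across exon junctions were counted. The sequences below are read 5′ to 3′ from GENCODE M21 transcripts (GRCm38, mm10), with the alternative exon in capitals and 15 coding bases on each side in lower case. In Pecam1, an exon of 57 nt at chr11:106671742-106671798 (minus strand) was present in Pecam1-202 and absent from Pecam1-203.
Pecam1-202: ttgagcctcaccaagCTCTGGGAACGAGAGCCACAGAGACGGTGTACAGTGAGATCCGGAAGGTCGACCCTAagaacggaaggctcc
Pecam1-203: ttgagcctcaccaagagaacggaaggctcc
The next exon of Pecam1, 23 nt at chr11:106662002-106662024, was present in Pecam1-207 and absent from Pecam1-202. Its length is no multiple of 3, so transcripts with and without it end in different reading frames.
Pecam1-207: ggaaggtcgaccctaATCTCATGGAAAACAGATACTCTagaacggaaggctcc
Pecam1-202: ggaaggtcgaccctaagaacggaaggctcc
In Tek, exon 4 of 23, with 153 nt at chr4:94799127-94799279 (plus strand), was present in Tek-203 and absent from Tek-202.
Tek-203: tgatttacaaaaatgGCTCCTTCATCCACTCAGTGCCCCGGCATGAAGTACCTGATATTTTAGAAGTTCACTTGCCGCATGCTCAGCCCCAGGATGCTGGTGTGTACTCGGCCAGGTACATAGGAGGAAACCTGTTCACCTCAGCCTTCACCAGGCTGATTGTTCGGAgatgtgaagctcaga
Tek-202: tgatttacaaaaatggatgtgaagctcaga
In Emcn, exon 5 of 12, with 39 nt at chr3:137403984-137404022 (plus strand), was present in Emcn-202 and absent from Emcn-201.
Emcn-202: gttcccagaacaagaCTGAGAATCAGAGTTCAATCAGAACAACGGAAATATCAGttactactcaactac
Emcn-201: gttcccagaacaagattactactcaactac

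Of the 10 genes, 9 were detected, beside 32.2% of all genes. The median level of all 10, the undetected gene included, was 5.80 TPM (6.41 in replicate 1 and 5.05 in replicate 2). The median of the 13957 detected genes, which leaves out undetected ones, was 15.02 TPM. Levels of the 10 genes ran from 50.6 TPM for Pecam1 to 0.095 TPM for Prox1, which alone was not detected. Pecam1 held 42.1% of the summed level in replicate 1 and 45.1% in replicate 2.

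**Figure D1:**
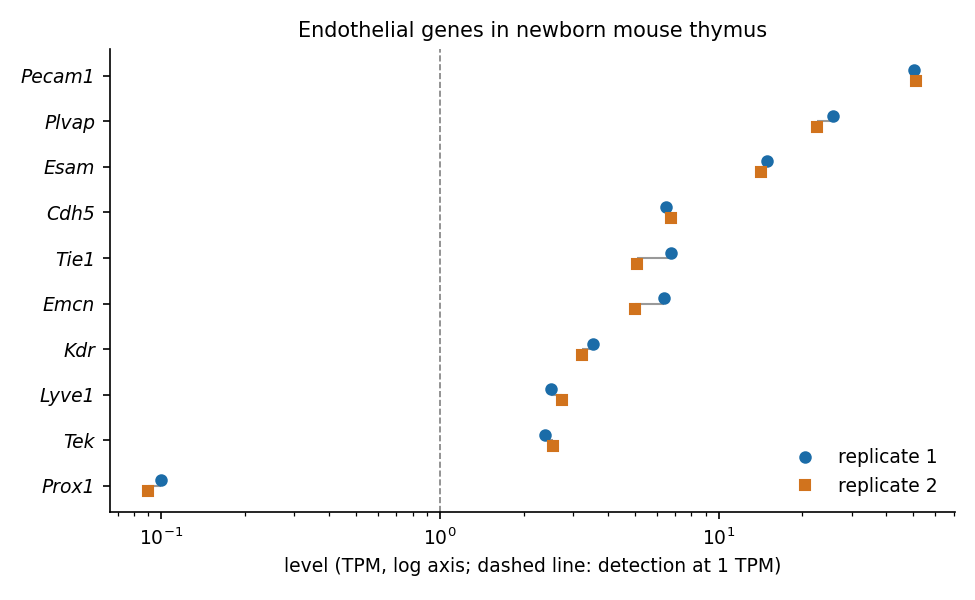
Level of each endothelial gene in TPM (log axis) in replicate 1 (circles) and replicate 2 (squares), ordered by the mean, with a dashed line at the detection level of 1 TPM. Pecam1 at 50.1 and 51.2 TPM is highest, 8 genes lie between 2.39 and 25.8 TPM, and Prox1 lies below the line at 0.10 and 0.09 TPM.

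The adhesion and junction genes were among the 4 highest of the 10. Pecam1 encodes PECAM1 (CD31), an adhesion molecule at contacts between endothelial cells that is also carried by platelets and by several kinds of leukocyte. It was at 50.1 TPM (4506 expected counts) in replicate 1 and 51.2 TPM (4996) in replicate 2, or 50.6 ± 0.813 TPM (SD, n = 2), above 77.6% of detected genes. Esam, an adhesion molecule of endothelial tight junctions that platelets also carry, was at 14.9 and 14.2 TPM (751 and 780 counts). Cdh5, the gene of VE-cadherin, the cadherin of endothelial adherens junctions, was at 6.46 and 6.74 TPM (740 and 834 counts). In these 3 genes the libraries lay close together, and the order Pecam1 above Esam above Cdh5 held in each. Pecam1 exceeded Cdh5 7.75-fold in replicate 1 and 7.60-fold in replicate 2. The platelet markers, whose part in the Pecam1 and Esam levels was not tested, were detected for 3 of 8 genes and summed to 74.8 TPM in replicate 1 and 71.8 TPM in replicate 2. Pf4, a platelet chemokine, held most of that sum (68.5 and 67.0 TPM). Among the markers not detected were the receptor subunit genes Gp1ba (0.10 and 0.05 TPM), Gp1bb (0.54 and 0.75 TPM) and Gp9 (0.76 and 0.44 TPM), and Treml1 (0.09 and 0.08 TPM).

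The receptor tyrosine kinases lay between 2.39 and 6.74 TPM. Tie1, which pairs with the angiopoietin receptor, was at 6.74 TPM (794 counts) in replicate 1 and 5.10 TPM (643 counts) in replicate 2. Kdr, which encodes VEGF receptor 2, the main signalling receptor for VEGF-A on blood endothelium, was at 3.55 and 3.25 TPM (610 and 602 counts). Tek, which encodes TIE2, the angiopoietin receptor, was at 2.39 and 2.55 TPM (314 and 363 counts). Tie1 was above Kdr and Kdr above Tek in each library. The ratio of Tie1 to Tek was 2.82 in replicate 1 and 2.00 in replicate 2.

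Plvap and Emcn encode surface proteins of capillaries and small vessels. PLVAP forms the diaphragms of fenestrae and caveolae, and its gene was at 25.8 TPM (1455 counts) in replicate 1 and 22.6 TPM (1376 counts) in replicate 2. Emcn, the gene of endomucin, a sialomucin of venous and capillary endothelium, was at 6.36 and 5.0 TPM (282 and 237 counts). Both were lower in replicate 2. Plvap overlaps Gtpbp3, a tRNA-modifying enzyme gene on the opposite strand with 853 and 836 counts, and since the use of strand is not stated, reads in the overlap could not be assigned to either gene with certainty.

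Of the lymphatic genes, Lyve1 was detected and Prox1 was not. Lyve1, which encodes a hyaluronan receptor of lymphatic endothelium that some macrophages also carry, was at 2.51 TPM (186 counts) in replicate 1 and 2.74 TPM (219 counts) in replicate 2. Prox1 was at 0.10 TPM (19 counts) and 0.09 TPM (23 counts). Prox1 reads were thus present in each library but sparse, and Lyve1 exceeded Prox1 25.1-fold in replicate 1 and 30.4-fold in replicate 2. The overlapping antisense genes Prox1os and Gm28172 had 0 counts in each library, where a count of 0 allows up to 3.

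By mean level the order was Pecam1, Plvap, Esam, Cdh5, Tie1, Emcn, Kdr, Lyve1, Tek and Prox1. The values of neighbouring genes overlapped between libraries for Cdh5 and Tie1, for Tie1 and Emcn, and for Lyve1 and Tek. The ranges of these neighbours across pups were thus not separated. This leaves out that both genes of a pair were measured in the same libraries, where Tie1 stayed above Emcn and Lyve1 above Tek. Within each library the margins were small, with Tie1 above Emcn 1.06-fold in replicate 1 and 1.02-fold in replicate 2. Lyve1 was above Tek 1.05-fold and 1.07-fold. Cdh5 and Tie1 changed places between libraries: Cdh5 was 0.958 times Tie1 in replicate 1 and 1.32 times Tie1 in replicate 2. The widest step was from Tek down to Prox1, 23.9-fold in replicate 1 and 28.3-fold in replicate 2.

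Transcript estimates gave each gene the same most abundant transcript in both libraries, for 10 of 10 genes. The tables held 31 transcripts of these genes. Cdh5, Plvap and Lyve1 had 1 transcript each, and the other 7 genes had 2 or more. A single form held nearly all of Kdr (Kdr-201, 100% in each library), Tie1 (Tie1-201, 99.1% and 95.9%) and Esam (Esam-201, 95.7% and 96.9%). The Prox1 estimate rests on the 19 and 23 counts above and gave Prox1-202 72.0% and 100%.

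Pecam1 was divided over several forms. Pecam1-203, the form without the 57-nt exon, held 50.3% of the level in replicate 1 and 49.7% in replicate 2, and Pecam1-202 held 20.9% and 21.3%. Pecam1-207 (11.6% and 12.9%), Pecam1-201 (12.01% and 10.4%) and Pecam1-204 (2.20% and 3.76%) followed. The exon lies near the 3′ end of the coding sequence, which in this gene encodes the cytoplasmic tail, the part of the protein that carries its tyrosine-based signalling motifs. Among coding transcripts, 51.9% in replicate 1 and 50.7% in replicate 2 lacked the 57-nt exon (51.3 ± 0.839%, SD, n = 2). The predicted product has 697 residues without it (Pecam1-203) and 716 with it (Pecam1-202). These same forms, which both lack the 23-nt exon, held 73.4% and 72.4%. Pecam1-207 lacked exon 5, which has 303 nt, and the share of coding transcripts without that exon was 11.96% and 13.2%. For each of these 3 exons the shares of both pups lay close together. The SD across pups leaves out the error of the transcript estimates. For Pecam1-203 the deposited SD of the estimated count was 134 for 2329 counts in replicate 1 and 148 for 2540 counts in replicate 2.

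Tek was less certain. Tek-203, with exon 4, held 50.3% in replicate 1 and 65.4% in replicate 2, and Tek-202, without it, held 38.2% and 22.6%. Tek-201, another form that includes the exon, held 11.4% and 11.9%. The share of coding transcripts without exon 4 was 38.2% in replicate 1 and 22.7% in replicate 2 (30.5 ± 10.95%, SD, n = 2). The deposited SD of the estimated count was 44.1 for the 119.8 counts of Tek-202 in replicate 1 and 34.4 for its 81.7 counts in replicate 2. The ranges of 1 such SD around each count overlapped, so a difference in exon use between pups was not resolved at this depth. The predicted product has 1072 residues without the exon (Tek-202) and 1123 with it (Tek-203).

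In Emcn, Emcn-201, without the 39-nt exon, held 80.9% in replicate 1 and 81.7% in replicate 2, and Emcn-202, with it, held 18.2% and 17.6%. Among the coding transcripts, 81.6% and 82.3% lacked the exon by TPM, and 69.2% and 70.1% by expected counts. The forms also differ in length (1357 nt for Emcn-201 and 2588 nt for Emcn-202), which the TPM share takes into account and the count share does not. Since this difference is far larger than the 39-nt exon, the shares are those of whole forms and need not rest on reads of the exon. The shorter form was the more abundant on either scale and in each pup. It encodes a predicted 248 residues, against 261 for the form with the exon.

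**Figure D2:**
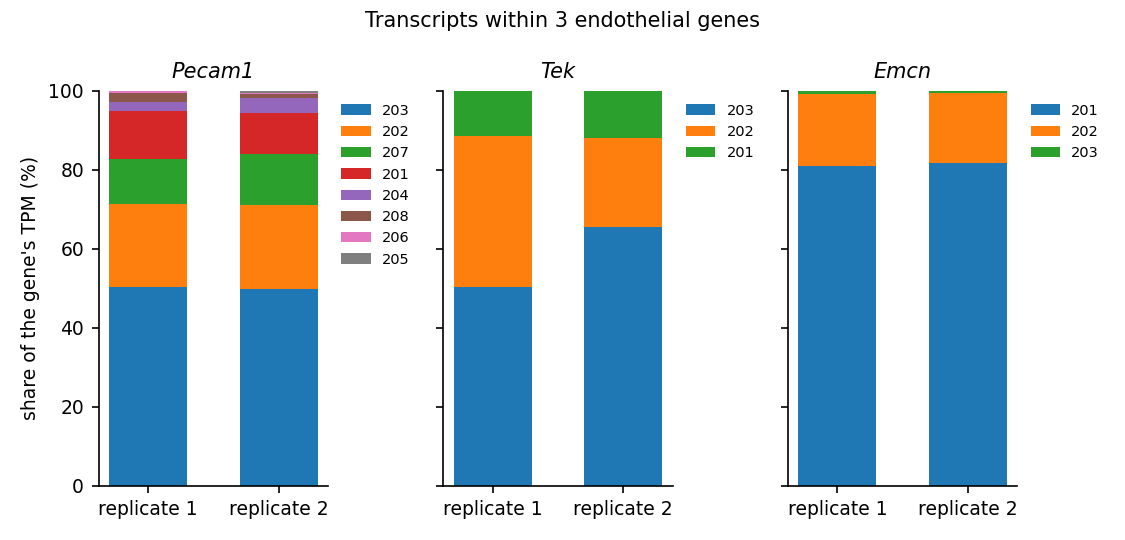
Share of each gene's TPM in percent given to each annotated transcript (colours, numbered as in GENCODE) of Pecam1, Tek and Emcn, with 1 bar per library. The bars of Pecam1 and Emcn are nearly the same in both libraries, while Tek-202 takes 38.2% in replicate 1 and 22.6% in replicate 2.

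The libraries of both pups were then compared gene by gene. Differences are log2 ratios of replicate 2 over replicate 1 after edgeR's TMM scaling, each with a 95% interval that covers counting error only. Of the 9 endothelial genes with a mean of at least 50 counts, 0 were over 1.5-fold apart, beside 4.74% of the 14155 genes with such counts (3.55% higher in replicate 1 and 1.19% higher in replicate 2). Likewise 0 were over 2-fold apart, beside 1.36%. Of the 10 genes, 5 were lower and 5 higher in replicate 2. The share of all genes with at least 50 counts that were lower in replicate 2 was 46.1%. The median log2 ratio over the 10 genes was 0.04, beside 0.01 over 17986 genes with a mean of at least 10 counts. The ratio of TPM instead gave a median of -0.10 with 6 genes lower. The direction of this median therefore depends on the scale, and no shift of these genes as a group was resolved.

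Some single genes differed by more than counting error. Tie1 fell by 0.37 on the log2 scale from replicate 1 to replicate 2 (interval -0.52 to -0.22), a 1.29-fold difference. Emcn fell by 0.31 (interval -0.57 to -0.06), a 1.24-fold difference. Plvap fell by 0.15 (interval -0.25 to -0.04), and Pecam1 was higher by 0.08 in replicate 2 (interval 0.03 to 0.14). For these 4 of 9 genes the counting interval left out 0, as it did for 49.9% of all genes with such counts. Counting error is not the whole spread between animals. A common coefficient of variation of 11.7% was therefore added, which was estimated from these same 2 libraries and holds biological and technical parts. With it, 8 of the 10 genes lay within 1 SD of no difference and all 10 within 2 SD. Since this SD was built from the differences it is set against, these counts describe the genes and test nothing. The share of all genes within these limits is not given here. Tie1 and Emcn were the genes beyond 1 SD, at -1.47 and -1.17 SD. The directions depend on the scaling: with library sizes taken from the spike-ins, whose 659 and 427 counts moved the median of all genes from 0.02 to 0.71, all 10 genes were higher in replicate 2, Tie1 by 0.32, Emcn by 0.38 and Plvap by 0.55. This scaling adds the same amount to each gene's log2 ratio. The place of Tie1, Emcn and Plvap below the median of all genes could therefore not change. The intervals of Esam (-0.16 to 0.14), Cdh5 (-0.04 to 0.25), Kdr (-0.25 to 0.08), Lyve1 (-0.12 to 0.46) and Tek (-0.08 to 0.37) included 0. That of Prox1, at -0.73 to 1.17, was too wide to set a direction.

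**Figure D3:**
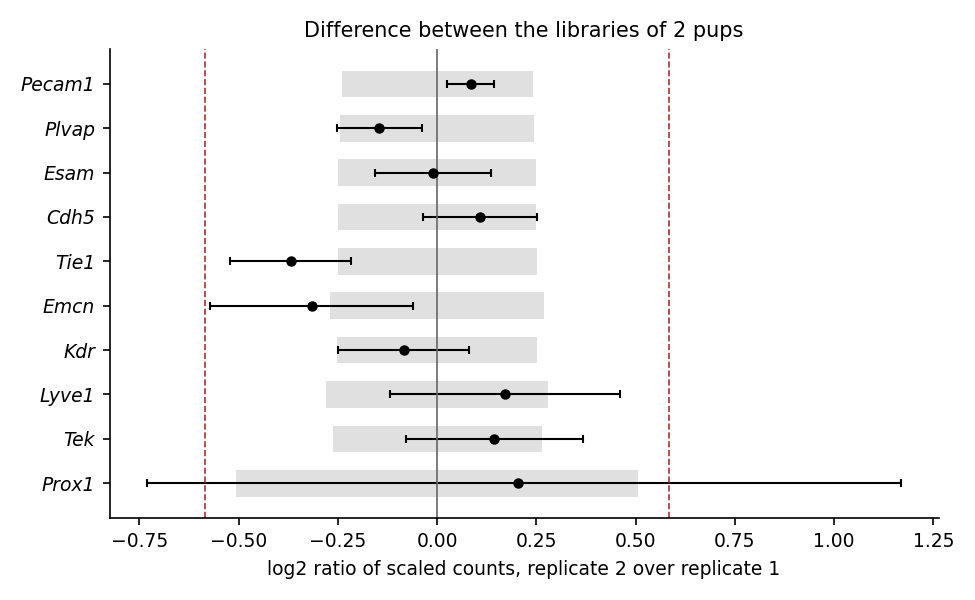
Log2 ratio of scaled counts (replicate 2 over replicate 1) of each endothelial gene, with 95% counting intervals as bars and dashed lines at 1.5-fold. Grey bands around 0 show 1 SD of counting error and of the common variation estimated from these same 2 libraries. Tie1 at -0.37 and Emcn at -0.31 lie outside their bands, and no gene lies beyond a dashed line. With spike-in scaling both genes would lie right of 0.

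Ligands, co-receptors and other genes that work with these receptors were listed separately. In all, 72 of 90 genes in 8 lists were detected, beside the 32.2% of all genes given above, with a median level of 3.50 TPM. Of the VEGF ligands and receptors 6 of 9 were detected, led by Nrp1, a co-receptor (27.5 and 27.3 TPM), Vegfb (19.7 and 20.6 TPM) and Flt1, VEGF receptor 1 (2.36 and 1.56 TPM). Nrp1 exceeded Kdr 7.73-fold in replicate 1 and 8.40-fold in replicate 2. Kdr exceeded Flt4, the VEGF receptor of lymphatic endothelium, 14.2-fold and 11.2-fold. Vegfd (0.52 and 0.53 TPM) and Flt4 (0.25 and 0.29 TPM) were below 1 TPM in each library.

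The partners of Tek were fewer, with 2 of 4 detected. Angpt1, the activating ligand of TIE2, led them at 11.4 and 10.1 TPM, above its receptor 4.77-fold in replicate 1 and 3.95-fold in replicate 2. Angpt4 followed at 1.20 and 1.56 TPM and Ptprb, a phosphatase of endothelial junctions, at 1.26 and 0.83 TPM. The ligand was thus above the receptor in each pup, although levels in whole tissue do not say which cells hold either.

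Junction and surface partners were detected for 14 of 14 genes. Ctnnb1, the catenin bound by VE-cadherin and used by many other cells, was at 136 and 143 TPM. Icam2, an adhesion molecule of endothelium and leukocytes, was at 102 and 103 TPM, 2.04-fold and 2.02-fold above Pecam1. Jup, another catenin, was at 78.0 and 77.8 TPM.

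Endothelial transcription factors were detected for 15 of 18 genes. The highest, Ets1 (292 and 269 TPM), Ets2 (228 and 211 TPM) and Fli1 (44.1 and 42.0 TPM), are ETS factors that lymphoid cells also use. Etv2 (0.00 and 0.03 TPM), Tal1 (0.07 and 0.11 TPM) and Gata2 (0.73 and 0.68 TPM), which act in early blood and vessel formation, were below 1 TPM in each library. Arterial genes were detected for 6 of 10, led by Hey1 (22.4 and 23.4 TPM), Dll4 (12.4 and 13.2 TPM) and Gja4 (5.05 and 4.02 TPM). Hey2 (0.39 and 0.65 TPM), Sema3g (0.23 and 0.24 TPM) and Bmx (0.59 and 0.32 TPM) were below 1 TPM. Venous and homing genes were detected for 8 of 10, led by the adhesion molecule genes Vcam1 (99.1 and 103 TPM) and Icam1 (51.6 and 52.6 TPM) and the receptor gene Ltbr (25.4 and 24.6 TPM). The selectin genes Selp (0.92 and 0.80 TPM) and Sele (0.40 and 0.19 TPM) were below 1 TPM. Levels in whole tissue do not say which cells held the transcripts of the arterial and venous lists. They are therefore not levels of arteries or veins. All 18 capillary and caveolar genes were detected, led by Cavin1 (52.9 and 50.5 TPM), Gpihbp1 (42.8 and 41.5 TPM) and Egfl7 (41.5 and 36.4 TPM). At this threshold the capillary list was complete, while the arterial and venous lists were not. The lists were chosen with earlier results known, and some genes, such as Selp, lay close to the threshold. This contrast between lists thus cannot be read as one between kinds of vessel.

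Of the lymphatic partners 3 of 8 genes were detected, a share near the 32.2% of all genes. Ccl21a, a chemokine, was at 337 and 374 TPM, Pdpn at 16.7 and 16.6 TPM and Itga9 at 2.64 and 1.57 TPM. Ccl21a and Pdpn are also expressed by thymic epithelium and stroma, so their levels are not specific to lymphatic vessels. Besides Flt4, the genes Mmrn1 (0.21 and 0.25 TPM), Reln (0.33 and 0.09 TPM), Stab2 (0.48 and 0.55 TPM) and Foxc2, a transcription factor of lymphatic valves (0.26 and 0.32 TPM), were below 1 TPM in each library. Reln had 22 counts in replicate 1 and 26 in replicate 2. Its lower TPM in replicate 2 goes with the estimated length used for TPM, 2267 nt in replicate 1 and 9559 nt in replicate 2. Lyve1 exceeded Flt4 10.0-fold in replicate 1 and 9.45-fold in replicate 2. Macrophage markers, whose part in the Lyve1 level was not tested, were detected for 9 of 10 genes and summed to 311 TPM in replicate 1 and 326 TPM in replicate 2. They were led by C1qb (102 and 110 TPM) and C1qa (81.3 and 91.5 TPM). Mrc1, a receptor of tissue macrophages that lymphatic endothelium can also carry, was 1.86 times Lyve1 in replicate 1 and 1.54 times in replicate 2. Timd4 (5.89 and 4.85 TPM) and Folr2 (3.01 and 2.73 TPM) were detected, and Cd163 was at 0.72 TPM in each library.

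**Figure D4:**
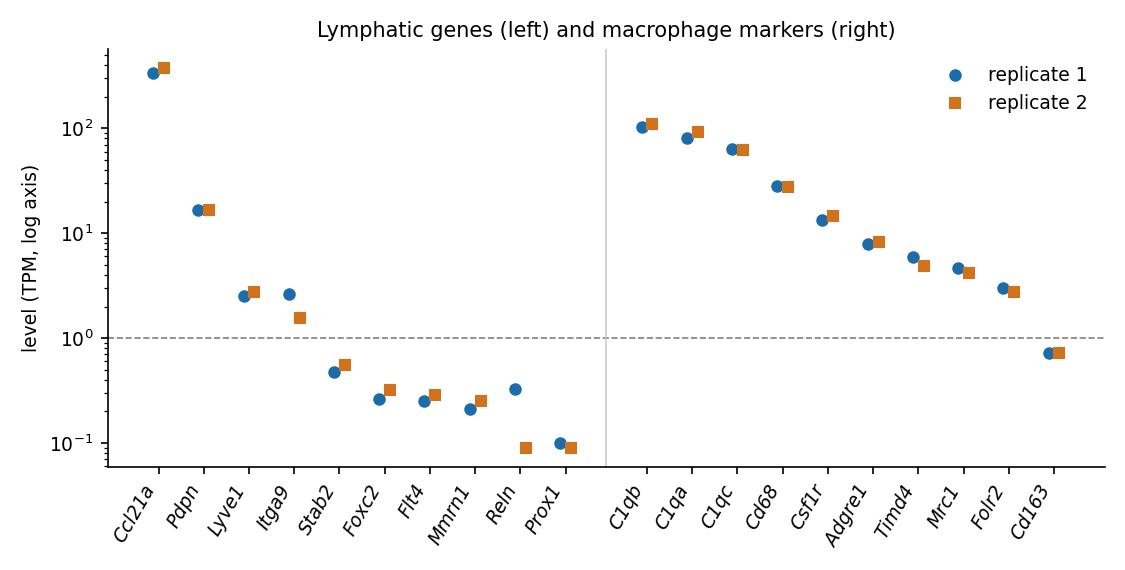
Level in TPM (log axis) of Lyve1, Prox1 and 8 lymphatic partner genes (left) and of 10 macrophage markers (right) in replicate 1 (circles) and replicate 2 (squares), with a dashed line at 1 TPM. Lyve1 at 2.51 and 2.74 TPM lies above the line, while Prox1, Flt4, Mmrn1, Reln, Stab2 and Foxc2 lie below it.

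Between pups, 1 of the 79 partner genes with a mean of at least 50 counts was over 1.5-fold apart, beside the 4.74% of all genes given above. This was Hhex, a homeobox factor of endothelium and blood progenitors, at 5.45 TPM in replicate 1 and 2.96 TPM in replicate 2, or 1.81-fold higher in replicate 1. By the ratio of TPM, 6 of these 79 passed, beside 5.86% of all genes on that scale. All 6 were higher in replicate 1, and they were Hhex, Flt1, Ptprb, Itga9 and the tight junction genes Cldn5 (19.5 and 12.8 TPM) and Jam2 (3.26 and 2.10 TPM). For some of them the estimated length used for TPM also differed between libraries. It was 4982 and 6315 nt for Flt1 and 5121 and 6209 nt for Itga9. By scaled counts the log2 ratio was -0.21 for Flt1 (interval -0.44 to 0.01) and -0.42 for Itga9. Of the 79 genes, 48 were lower in replicate 2, beside 46.1% of all genes. Among capillary and caveolar genes 17 of 18 were lower in replicate 2, with a median log2 ratio of -0.10. Among transcription factors 14 of 16 were lower, with a median of -0.09. The median over all genes with at least 50 counts was 0.02, and both lists lay below it, as did arterial genes narrowly (0.01). The other partner lists lay above it: junction and surface partners (0.09), lymphatic partners (0.09), angiopoietins and TIE partners (0.05), VEGF genes (0.05) and venous and homing genes (0.05). The endothelial genes were divided: Tie1, Emcn, Plvap, Kdr and Esam lay below that median, and Pecam1, Cdh5, Tek, Lyve1 and Prox1 above it. With spike-in scaling, 48 of the partner genes were over 1.5-fold apart, all of them higher in replicate 2, beside 72.1% of all genes.

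Markers of vessel-wall cells were mixed. Pericyte and smooth muscle markers were detected for 9 of 10 genes, and their summed level was 74.2 TPM in replicate 1 and 92.8 TPM in replicate 2, with a median log2 ratio of 0.27. Acta2, smooth muscle actin (18.0 and 33.0 TPM), was 1.89-fold and Cspg4, a pericyte proteoglycan (0.40 and 0.74 TPM), 1.93-fold higher in replicate 2, and Acta2 made up most of the difference between the sums. These were the 2 of 10 markers over 1.5-fold apart, while Rgs5 and Notch3 had log2 ratios of -0.08 and -0.20. Blood progenitor markers, some of which endothelium shares, were detected for 3 of 5 genes and summed to 25.1 and 24.3 TPM. Hlf (0.67 and 0.57 TPM) was below 1 TPM in each library. Heart muscle markers, a check for neighbouring tissue, were detected for 3 of 5 genes and summed to 13.7 and 14.6 TPM. Myl7 was at 5.59 and 5.82 TPM, while Nppa (0.72 and 0.62 TPM) and Myh6 (0.15 and 0.11 TPM) were not detected. In the platelet list, Ppbp was 2.46-fold higher in replicate 1 (2.87 and 1.12 TPM). The other platelet markers with at least 50 counts did not follow it, with log2 ratios of 0.01 for Pf4 and 0.37 for Itga2b. No gene of these 6 marker lists had 0 counts in both libraries. The part of these markers in the differences of the endothelial genes was not tested.

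**Figure D5:**
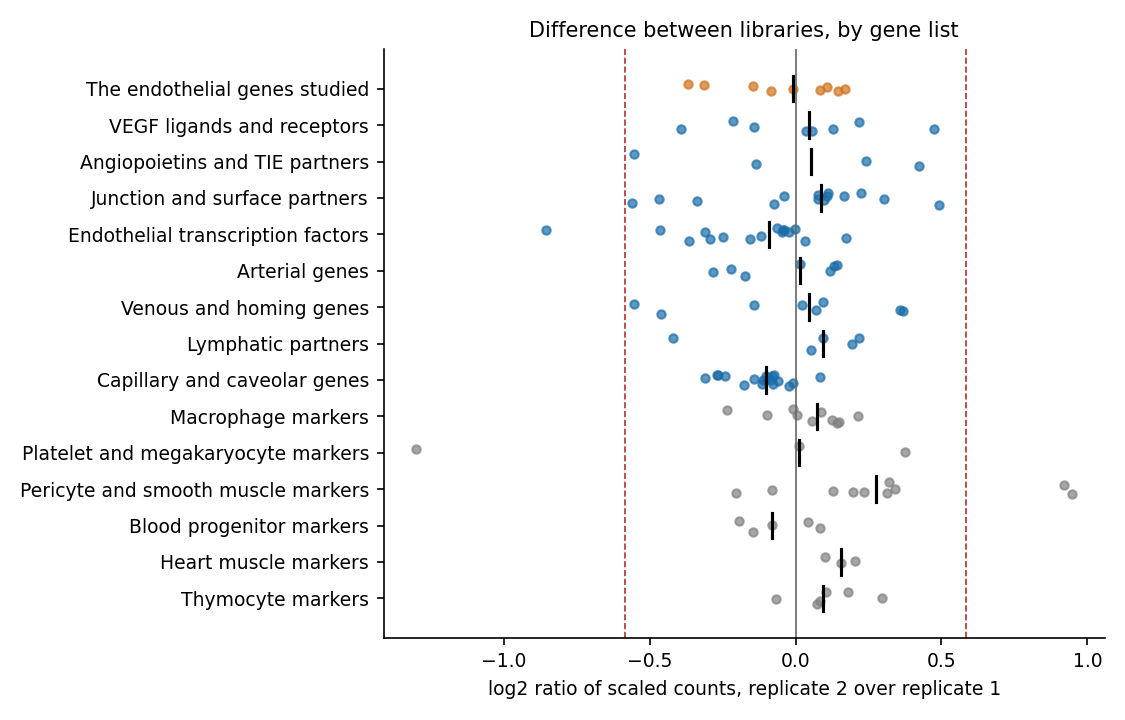
Log2 ratio of scaled counts (replicate 2 over replicate 1) for genes with a mean of at least 50 counts, 1 point per gene, for 9 of the endothelial genes (orange, without Prox1), 8 partner lists (blue) and 6 marker lists of other cell types (grey), with black bars at each median and dashed lines at 1.5-fold. Capillary and caveolar genes lie mostly left of 0 (17 of 18), and pericyte and smooth muscle markers mostly right of it, with Acta2 and Cspg4 beyond the line. Spike-in scaling, not drawn, would move all points to the right.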

How the data were processed

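The authors deposited unnormalized expected counts (estimates that can be fractional), TPM (relative to transcript length and to all transcripts) and FPKM values, in 1 gene and 1 transcript table per library. The percent of a gene's TPM given to each transcript and the SD of each transcript's count come from the deposited transcript tables. The build is mm10 per the labels and the annotation M4 per the deposited read-me texts. Which aligner, quantifier and strand setting were used is not given in the sources used here. RNA was extracted with a mirVana kit and molecules above a size limit were kept, per the labels' protocols. The 26248 rows whose identifier is a number (0.000105% and 4.04e-05% of counts), 96 spike-in rows and 1 phiX row were left out. Symbols, coordinates, exons and coding lengths come from GENCODE M21, which matched 42462 genes. Transcript lengths of Cdh5, Plvap and Lyve1 differ between these releases. The antisense gene Gm29682, which overlaps Cdh5, was not analysed here.

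Counts were rounded, scaled with edgeR's TMM method (4.0.16, R 4.3.3) and compared as log2 ratios with a prior count of 0.5, at a mean of at least 50 counts for folds and 10 for medians. Intervals are exact binomial (Clopper-Pearson) at 95% and, like the floor of 3 counts, cover counting error only, since without molecular identifiers 2 reads can stem from 1 molecule. The SD of a ratio combines edgeR's common biological coefficient of variation (17258 genes), estimated from these same 2 libraries, with counting error. The scaling and the log2 ratios were tested on simulated data, while the intervals, the SD of a ratio and the transcript shares were not. With 1 group there is no test and no p-value, and the spread between littermates holds biological and technical parts.

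The genes, lists and thresholds were chosen with earlier results of these data known. The text names the 10 genes, the 3 highest of each partner list, those below 1 TPM in both libraries, those over 1.5-fold apart, and any marker of another cell type. Alternatives changed the detection level, unit, scaling (DESeq2 1.42.0, spike-ins, CPM, TPM ratio), prior and filters, and used each library alone. The fold counts of partner genes under other scalings, and exon shares by counts, were added after seeing the data. Tables were handled in Python 3.11.15 with numpy 2.4.6 and pandas 2.3.3, intervals computed with scipy 1.17.1 and plots drawn with matplotlib 3.10.9.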

Additional observations from a re-analysis of the deposited data

How the results depend on the processing

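The median level of the 10 genes was 4.41 on the FPKM scale and 6.997 TPM when rescaled to protein-coding genes. Scaling by spike-ins, which had only 659 and 427 counts, shifted the median of all genes with at least 50 counts from a log2 ratio of 0.02 to 0.71 and that of the 10 genes to 0.73, so that 0 of them were lower in replicate 2, 6 were over 1.5-fold apart (72.1% of all genes were) and 48 partner genes were. Under this scaling the directions of Tie1, Emcn and Plvap turned, to log2 ratios of 0.32, 0.38 and 0.55. The ratio of TPM gave 6 partner genes over 1.5-fold. These were the 7 summary values that moved, beside 37 in which a median stayed within its spread or a count within 1.5 times, the limit included. At that limit, 6 of the 10 genes in place of 9 were detected at 5 TPM. No other alternative turned the direction of those of the 10 genes whose counting interval left out 0. Partner genes were not followed in this way. The cause of the spike-in shift was not tested. No paired analysis was possible because there is 1 group. Depth limits Prox1, at 19 and 23 counts, and the exon share of Tek.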
